A study of Stenocereus queretaroensis with 6 samples.

Results

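The clusters described here carry Swiss-Prot names of tubulins, actins, kinesins and the proteins that regulate both filament systems. They come from RNA-seq of the columnar cactus Stenocereus queretaroensis grown as suspension cells, with reads assembled without a reference genome into 170970 transcript clusters. A cluster was a member where the description of its best Swiss-Prot hit named a tubulin, a microtubule-associated protein, a kinesin, a katanin, an actin, an actin-related or actin-depolymerizing protein, a profilin, a villin, a formin-like protein or a myosin. This rule took 1173 of the 170970 clusters, on 239 Swiss-Prot hits. Of these, 649 were placed in the microtubule system and 523 in the actin system, and 1 was taken by spelling alone (actinidain, a fruit protease) and was left out of both. The cells grown in MS medium with 8% sucrose (3 libraries) were compared with cells grown in MS medium with 3% sucrose (3 libraries). MS is Murashige and Skoog's plant culture medium, and both groups share it. The labels name no line, clone, culture age or treatment beyond the medium, and nothing in them shows whether libraries of one medium are independent cultures. The p-values below therefore measure only the spread between these libraries, which may be technical.

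Microtubules are polymers of alpha- and beta-tubulin dimers. In plant cells they form the cortical array that guides cellulose deposition, the mitotic spindle and the phragmoplast that builds the new cell wall at division. Gamma-tubulin complexes nucleate them, MAP65 proteins cross-link them, katanin severs them, and kinesins move along them or reshape them. Actin filaments carry myosin-driven organelle movement: formins and the ARP2/3 complex nucleate filaments, profilin binds the monomers, villins bundle filaments, and actin-depolymerizing factors with actin-interacting protein 1 take them apart.

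The libraries held between 35476032 and 41147265 expected counts, of which members took 0.965 to 1.01% at 8% sucrose, against 1.68 to 1.80% at 3% sucrose. Of the 1173 members, 814 passed the filter on low counts and were tested; they held 99.7% of the members' counts, and 42 members had 0 counts in every library. The names rest on similarity: 830 members had their best match in the NR protein database in sugar beet (Beta vulgaris), and so did 66 of the 70 members whose Swiss-Prot hit came from outside the land plants. The Pfam domain column named a kinesin motor domain in 302 of 388 kinesin clusters, a tubulin GTPase domain in 9 of 11 alpha- and 18 of 34 beta-tubulin clusters, and a myosin head in 24 of 28 class VIII and 92 of 152 class XI myosin clusters. It named no myosin head in the 27 clusters whose hit is an animal or protist myosin, and no formin, actin or profilin domain in any member. Reads of 1 gene can be divided between clusters, since 1102 members shared their Swiss-Prot hit with another member, so values are given both per cluster and summed over the clusters of a hit. Clusters of 1 gene may also hit proteins of different species, so a count of hits is not a count of genes. Levels are CPM, counts scaled to library totals with TMM factors and free of cluster length, and compare the same feature between media. Levels of different genes are compared as FPKM, which divides by cluster length. A short cluster can have a high FPKM from few counts, and summed FPKM adds each such cluster in full. In bulk RNA, fewer cells of a type and less RNA per cell cannot be told apart.

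At 8% sucrose the summed level of all members was 9454 ± 227 CPM, against 18440 ± 769 CPM at 3% sucrose (SD, n = 3 each), a log2 ratio of -0.96. Of the 814 tested member clusters 155 rose and 275 fell (edgeR quasi-likelihood test, Benjamini-Hochberg adjusted p below 0.05 over all 85038 tested clusters), while 384 did not pass. Over all tested clusters, 54.6% were called, 29.1% higher and 25.6% lower. The median log2 fold change was -0.24 over tested members, against 0.19 over all tested clusters. The 3 libraries at 8% sucrose lay wholly above the 3 at 3% sucrose in 208 tested members, against 36.6% of all tested clusters, and wholly below in 310, against 31.0%. Libraries without overlap are thus common in these data. No such share was computed over hits, so lack of overlap alone does not set a hit named below apart. Most of the members' counts lay in clusters that fell: these held 70.26% of the CPM of tested members, and those that rose held 19.32%. Over all tested clusters those that fell held 52.15% and those that rose 33.91%.

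Summed over clusters, 213 member hits were tested, of which 39 rose and 132 fell, beside 80.1% called over all 13187 tested hits, 29.9% higher and 50.1% lower. The median log2 fold change was -0.70 for member hits and -0.32 for all tested hits. These values use the library scaling of the cluster fit. TMM factors computed on the hits themselves raise every hit by about 0.35 on the log2 scale; 59 member hits then rose and 105 fell, beside 79.6% of all hits called, 39.9% higher and 39.7% lower. A hit or class sum whose log2 value lies between -0.35 and 0 is therefore near 0 or positive under the second scaling. Counts of hits below are read against the 50.1% lower and 29.9% higher of all tested hits, and the count on the factors of the hits is given where it differs. Counts of clusters below are read against the 29.1% higher and 25.6% lower of all tested clusters.

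**Figure D1:**
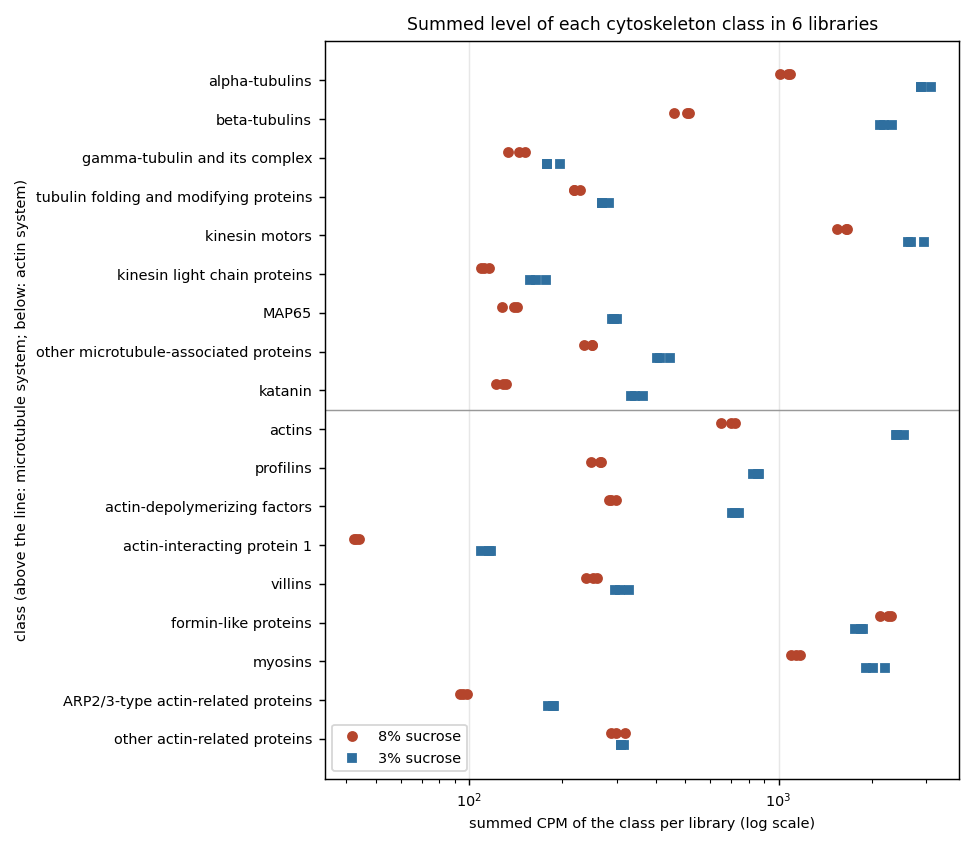
Summed CPM of each class of members (log axis) in the 3 libraries at 8% sucrose (circles) and the 3 at 3% sucrose (squares). Formin-like proteins lie higher at 8% sucrose, the libraries of the other actin-related proteins overlap, and the other classes lie lower at 8% sucrose.

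**Figure D2:**
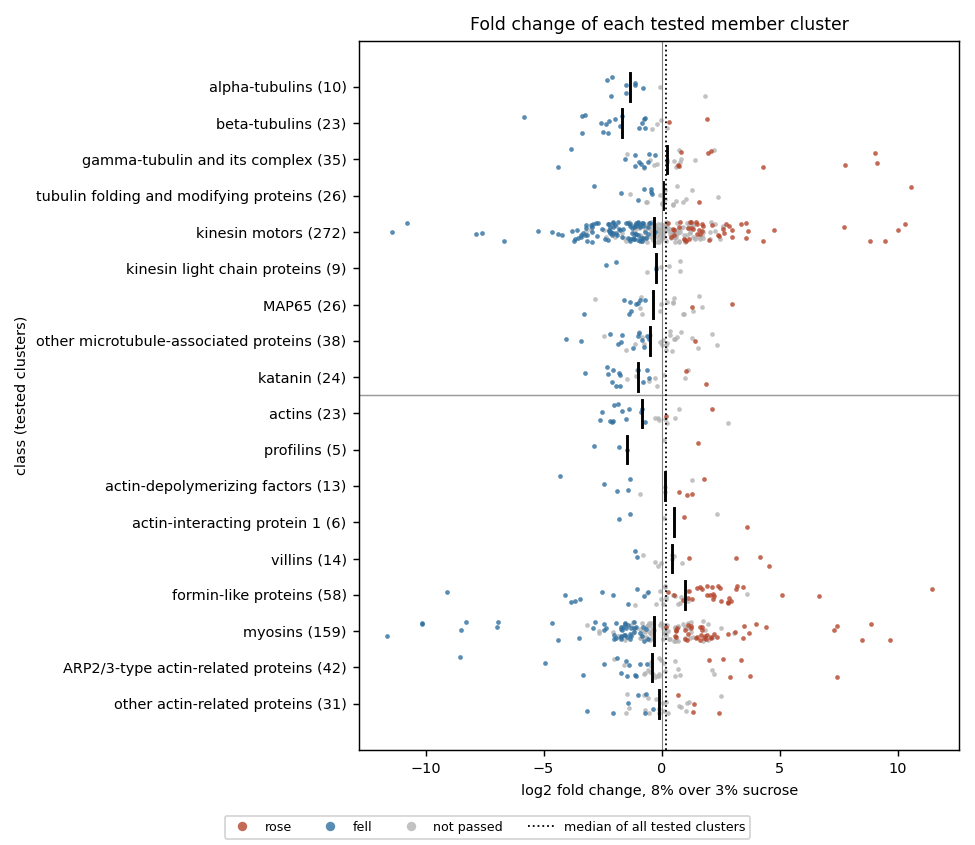
Log2 fold change of each of the 814 tested member clusters by class, with the class median (bar) and the median of all tested clusters, 0.19 (dotted line). Class medians run from -1.67 in beta-tubulins to 1.00 in formin-like proteins; clusters at 0 counts in 1 medium have fitted values whose size depends on the prior count.

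Alpha- and beta-tubulins, the building blocks of the filament, had the lowest log2 ratios of summed level among the microtubule classes. Of 5 tested alpha-tubulin hits 4 fell and 1 did not pass, and of 15 tested beta-tubulin hits 11 fell and 2 rose (10 and 3 on the factors of the hits). Alpha-tubulin clusters summed to 1011, 1093 and 1076 CPM at 8% sucrose, against 2886, 3103 and 2880 CPM at 3% sucrose, a log2 ratio of -1.48. Beta-tubulin clusters summed to 458, 514 and 506 CPM at 8% sucrose, against 2132, 2333 and 2191 CPM at 3% sucrose, a log2 ratio of -2.17. In both classes every 8% library lay below every 3% library. Of 10 tested alpha-tubulin clusters 8 fell and 2 did not pass, and of 23 tested beta-tubulin clusters 17 fell and 2 rose.

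The beta-tubulin hit with the most counts, tubulin beta-8 of Arabidopsis thaliana, had 159, 180.3 and 178 CPM at 8% sucrose, against 1299, 1416 and 1339 CPM at 3% sucrose. Its log2 fold change was -2.97 ± 0.07 (SE; adjusted p = 1.69e-09). A single cluster of 1727 bp, Cluster-2051.80517, carried most of it, with 123, 141 and 136 CPM at 8% sucrose, against 1231, 1336 and 1270 CPM at 3% sucrose. The maize tubulin beta-5 hit had 28.8, 37.6 and 35.3 CPM at 8% sucrose, against 321, 382 and 345 CPM at 3% sucrose, a log2 fold change of -3.37 ± 0.11 (adjusted p = 1.10e-08). Not every beta-tubulin followed: the lupin tubulin beta-1 hit, made of 1 cluster, had 172, 197 and 191 CPM at 8% sucrose, against 148, 158 and 149 CPM at 3% sucrose, and rose by 0.30 on the log2 scale (adjusted p = 0.00211). As a cluster its adjusted p was 0.00797, and it missed the threshold without 3% replicate 1 (0.23, adjusted p = 0.0704) or 3% replicate 3 (0.21, adjusted p = 0.0753). The cluster was below beta-8 at 3% sucrose and above it at 8% sucrose: per length it averaged 205 FPKM at 8% and 149.7 FPKM at 3% sucrose, while Cluster-2051.80517 averaged 96.5 FPKM at 8% and 832 FPKM at 3% sucrose.

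Among alpha-tubulins the cotton tubulin alpha-4 hit had 560, 601 and 601 CPM at 8% sucrose, against 1258, 1368 and 1268 CPM at 3% sucrose (log2 fold change -1.14 ± 0.05, adjusted p = 8.01e-08). The maize tubulin alpha-6 hit had 249.6, 281 and 268 CPM at 8% sucrose, against 745, 779.6 and 737 CPM at 3% sucrose. The barley tubulin alpha-3 hit had 183, 191 and 186 CPM at 8% sucrose, against 788, 854 and 780.2 CPM at 3% sucrose (log2 fold change -2.11 ± 0.05, adjusted p = 3.06e-09). None of these 3 hits overlapped between the media. The ratio of summed alpha- to beta-tubulin FPKM was 0.780, 0.720 and 0.819 at 8% sucrose and 0.647, 0.696 and 0.737 at 3% sucrose, which overlap.

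Gamma-tubulins and their complex summed to 133, 145 and 151 CPM at 8% sucrose, against 178, 196 and 178 CPM at 3% sucrose, a log2 ratio of -0.37 that became -0.01 on the factors of the hits. Of 35 tested clusters 9 rose and 11 fell (25.71% and 31.43%), near the 29.1% and 25.6% of all tested clusters. The tubulin gamma-2 hit had 40.5, 45.9 and 46.8 CPM at 8% sucrose, against 61.3, 59.2 and 57.5 CPM at 3% sucrose, and its call was lost on the factors of the hits (log2 fold change -0.42, then -0.07). Gamma-tubulin complex component 3, a core subunit of the nucleating ring, had 25.9, 26.8 and 29.3 CPM at 8% sucrose, against 21.1, 23.2 and 21.1 CPM at 3% sucrose, and rose (log2 fold change 0.32 ± 0.07, adjusted p = 0.00284). Component 2 had 19.5, 22.4 and 21.7 CPM at 8% sucrose, against 24.6, 26.5 and 24.4 CPM at 3% sucrose; its log2 fold change of -0.25 (adjusted p = 0.0125) turned to 0.11 on the factors of the hits. Of 9 tested hits of this class 3 rose and 6 fell, and on the factors of the hits 3 rose and 2 fell. The rise with the smallest adjusted p was a low cluster that hit component 2 of the mouse, Cluster-2051.66429, with 1.17, 1.78 and 2.43 CPM at 8% sucrose, against 0 in all 3 libraries at 3% sucrose, at least 21.6-fold higher than 3 counts per library. The cluster of component 4 with the smallest adjusted p, Cluster-2051.24935, fell, with 7.27, 7.46 and 8.64 CPM at 8% sucrose, against 21.2, 25.8 and 20.4 CPM at 3% sucrose.

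Of the 5 tubulin-folding cofactor hits, whose proteins assemble the alpha-beta dimer, 3 fell and 2 did not pass; on the factors of the hits 1 fell and 2 rose. Cofactor D had 36.3, 44.0 and 40.1 CPM at 8% sucrose, against 76.0, 87.6 and 78.6 CPM at 3% sucrose, and fell by 1.01 on the log2 scale (adjusted p = 3.74e-06). Cofactor A had 64.1, 59.1 and 57.2 CPM at 8% sucrose, against 57.4, 52.0 and 54.3 CPM at 3% sucrose, which did not pass (log2 fold change 0.14 ± 0.06, adjusted p = 0.0648), and passed as higher on the factors of the hits (0.49). A cofactor B cluster, Cluster-2051.116474, had 3.42, 7.16 and 4.66 CPM at 8% sucrose, against 0 in all 3 libraries at 3% sucrose, at least 61.2-fold higher. The tubulin tyrosine ligase-like protein 12 hit, named after a mouse protein, had 52.2, 52.7 and 54.1 CPM at 8% sucrose and 53.0, 57.7 and 54.1 CPM at 3% sucrose, with overlapping libraries. Its log2 fold change of -0.05 did not pass (adjusted p = 0.38), and it passed as higher on the factors of the hits (0.30, adjusted p = 0.000436). The folding and modifying class as a whole had a log2 ratio of -0.30, or 0.05 on the factors of the hits.

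Among proteins that bundle, track and cut microtubules, 3 of 5 tested MAP65 hits fell and 1 rose, under both scalings, beside 50.1% lower over all hits. Of 9 tested hits of other microtubule-associated proteins 7 fell and 2 did not pass, and on the factors of the hits 5 fell and 2 rose. All 4 katanin hits fell, and 3 of them on the factors of the hits. MAP65 clusters summed to 127, 139 and 143 CPM at 8% sucrose, against 289.8, 300.3 and 293 CPM at 3% sucrose, a log2 ratio of -1.11. MAP65-1, which cross-links antiparallel microtubules, had 38.1, 44.3 and 48.3 CPM at 8% sucrose, against 125, 132 and 124 CPM at 3% sucrose (log2 fold change -1.54 ± 0.08, adjusted p = 2.18e-07). MAP65-3, which acts in the phragmoplast midzone in Arabidopsis, had 30.4, 31.9 and 31.6 CPM at 8% sucrose, against 69.5, 69.7 and 66.6 CPM at 3% sucrose, and fell by 1.13 on the log2 scale. MAP65-5 fell by 0.73, with 54.7, 59.7 and 60.3 CPM at 8% sucrose, against 93.1, 97.7 and 99.1 CPM at 3% sucrose. The libraries of the 2 media did not overlap for any of these 3 hits. The MAP65-8 cluster that rose (log2 fold change 2.97 ± 0.93, adjusted p = 0.0318) stayed at or below 1.11 CPM in every library. Its adjusted p lay between 0.0503 and 0.0971 when 8% replicate 1, 2 or 3 or 3% replicate 1 or 3 was left out.

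Hits of both katanin subunits fell, the p80 hit under both scalings and the 3 catalytic p60 hits in 2 of 3 cases on the factors of the hits. The p80 regulatory subunit had 53.8, 53.8 and 53.4 CPM at 8% sucrose, against 137, 144 and 133 CPM at 3% sucrose (log2 fold change -1.36 ± 0.05, adjusted p = 2.27e-08). The catalytic hit with the most counts, katanin p60 A-like 2 of a frog, had 50.4, 58.8 and 56.2 CPM at 8% sucrose, against 179, 189 and 170.5 CPM at 3% sucrose (log2 fold change -1.70 ± 0.07). Its identity is uncertain, since the best NR hit of its most abundant cluster is a hypothetical sugar beet protein. The Arabidopsis katanin p60 A1 hit had 15.8, 18.2 and 17.6 CPM at 8% sucrose, against 23.4, 24.5 and 23.7 CPM at 3% sucrose; it fell by 0.47, a call that was lost on the factors of the hits (-0.12, adjusted p = 0.144). Of 24 tested katanin clusters 13 fell and 2 rose (54.17% and 8.33%). The rise with the smallest adjusted p, in Cluster-2051.39375, was of a cluster at 1.06 CPM or less in every library, and leaving out 8% replicate 1, 2 or 3 or 3% replicate 1 or 3 moved its adjusted p from 0.0392 to between 0.0522 and 0.12.

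Among the other microtubule-associated proteins 13 of 38 tested clusters fell and 1 rose (34.21% and 2.63%). AIR9, which marks the cortical division site in Arabidopsis, had 70.2, 75.8 and 81.0 CPM at 8% sucrose, against 111, 135 and 123 CPM at 3% sucrose (log2 fold change -0.70 ± 0.08, adjusted p = 4.47e-05). TORTIFOLIA1, which organizes the cortical array and was singled out after its values were seen, had 13.6, 12.4 and 12.5 CPM at 8% sucrose, against 65.9, 76.0 and 70.9 CPM at 3% sucrose, and fell by 2.47 on the log2 scale (adjusted p = 5.53e-09). The rice MAP70-1 hit fell by 0.75, and a rice MAP70-3 cluster, Cluster-2051.85735, had 10.6, 9.76 and 9.31 CPM at 8% sucrose, against 34.5, 31.1 and 29.3 CPM at 3% sucrose. The single cluster that rose, Cluster-2051.98339, hit EB1B, which tracks plus ends, with 1.37, 1.67 and 1.63 CPM at 8% sucrose, against 0.618, 0.601 and 0.548 CPM at 3% sucrose. The Arabidopsis MAP70-2 hit had 50.2, 53.5 and 55.2 CPM at 8% sucrose and 57.7, 68.9 and 58.0 CPM at 3% sucrose; its log2 fold change of -0.22 (adjusted p = 0.0311) lost the call without 8% replicate 1 (-0.18), 8% replicate 2 (-0.22) or 3% replicate 2 (-0.13) and was 0.14 on the factors of the hits.

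Kinesin light chain-related proteins, which in Arabidopsis hold cortical microtubules in place laterally, split by hit. Protein 1 had 90.7, 96.7 and 91.7 CPM at 8% sucrose and 95.5, 108 and 97.4 CPM at 3% sucrose, which did not pass (log2 fold change -0.11, adjusted p = 0.132). On the factors of the hits it passed as higher (0.24, adjusted p = 0.00279). Protein 2 had 12.9, 13.9 and 15.5 CPM at 8% sucrose, against 45.6, 50.0 and 50.3 CPM at 3% sucrose, and fell by 1.79 (adjusted p = 6.21e-08). Protein 3 fell by 1.78.

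Kinesin motors were the class with the most clusters, 388 on 77 hits. They summed to 1547, 1647 and 1662 CPM at 8% sucrose, against 2629, 2961 and 2687 CPM at 3% sucrose, a log2 ratio of -0.77. Calls were made in both directions, 45 higher and 91 lower of 272 tested (16.54% and 33.46%), beside 29.1% and 25.6% of all tested clusters. The median log2 fold change of the tested kinesin clusters was -0.31. Of 68 tested kinesin hits 12 rose and 40 fell, and on the factors of the hits 17 rose and 31 fell. The hit with the most counts, KIN-14B, whose Arabidopsis namesake takes part in chloroplast movement, had 98.2, 104 and 102 CPM at 8% sucrose, against 187, 191 and 185 CPM at 3% sucrose (log2 fold change -0.89 ± 0.05, adjusted p = 2.52e-07). KIN-12F, of the family that includes phragmoplast kinesins, had 27.3, 32.1 and 30.8 CPM at 8% sucrose, against 164, 208 and 165 CPM at 3% sucrose (log2 fold change -2.57 ± 0.11, adjusted p = 4.34e-08). KIN-7O went the other way, with 111, 119 and 122 CPM at 8% sucrose, against 86.9, 104 and 97.0 CPM at 3% sucrose, and rose by 0.29 (adjusted p = 0.0058). Its libraries did not overlap, while of the 17 tested clusters that share this hit 5 rose and 1 fell. The kinesin fall with the smallest adjusted p was in Cluster-2051.117772, of KIN-7D, with 9.91, 10.4 and 10.8 CPM at 8% sucrose, against 59.0, 61.8 and 61.0 CPM at 3% sucrose.

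The families of kinesins differed in size of change, described here without a test of the family. KIN-5 kinesins, which push spindle poles apart, summed to 55.2, 64.1 and 65.7 CPM at 8% sucrose, against 181, 206 and 189 CPM at 3% sucrose, a log2 ratio of -1.64. KIN-12 kinesins summed to 143, 164 and 169.6 CPM at 8% sucrose, against 388, 478 and 399 CPM at 3% sucrose, a log2 ratio of -1.41. Of 5 tested KIN-12 hits 3 fell and 2 did not pass, among them KIN-12D, with 45.7, 53.1 and 61.9 CPM at 8% sucrose and 48.8, 70.8 and 51.7 CPM at 3% sucrose (log2 fold change -0.09, adjusted p = 0.588). NACK kinesins, which in tobacco start the signalling that expands the phragmoplast, summed to 7.61, 7.98 and 7.22 CPM at 8% sucrose, against 23.8, 29.4 and 22.6 CPM at 3% sucrose, a log2 ratio of -1.73. These families were singled out after their values were seen. KIN-1, at under 1 CPM per library at 8% sucrose, had 0.932, 0.929 and 0.543 CPM there, against 4.41, 4.81 and 4.77 CPM at 3% sucrose.

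KIN-8 was the family whose sum was higher at 8% sucrose, with 12.9, 12.8 and 13.8 CPM at 8% sucrose, against 5.79, 6.09 and 7.62 CPM at 3% sucrose, a log2 ratio of 1.02. Of its 7 tested clusters 4 rose (57.14%) and 3 did not pass. KIN-10, on the other hand, summed to 135, 139.9 and 137 CPM at 8% sucrose, against 151, 163 and 147 CPM at 3% sucrose, a log2 ratio of -0.16 that was 0.19 on the factors of the hits. The large KIN-14 family, of 147 clusters, held hits at both ends. The Arabidopsis KIN-14I hit had 12.3, 13.5 and 13.7 CPM at 8% sucrose, against 79.7, 92.4 and 82.9 CPM at 3% sucrose, and fell by 2.69. The rice KIN-14C hit had 29.0, 28.3 and 24.6 CPM at 8% sucrose, against 4.56, 4.26 and 4.44 CPM at 3% sucrose, and rose by 2.63 (adjusted p = 1.72e-08). The KIN-14P hit had 22.8, 15.4 and 17.8 CPM at 8% sucrose, against 1.82, 2.04 and 1.75 CPM at 3% sucrose, and rose by 3.31. These 3 hits were picked out after their values were seen.

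**Figure D3:**
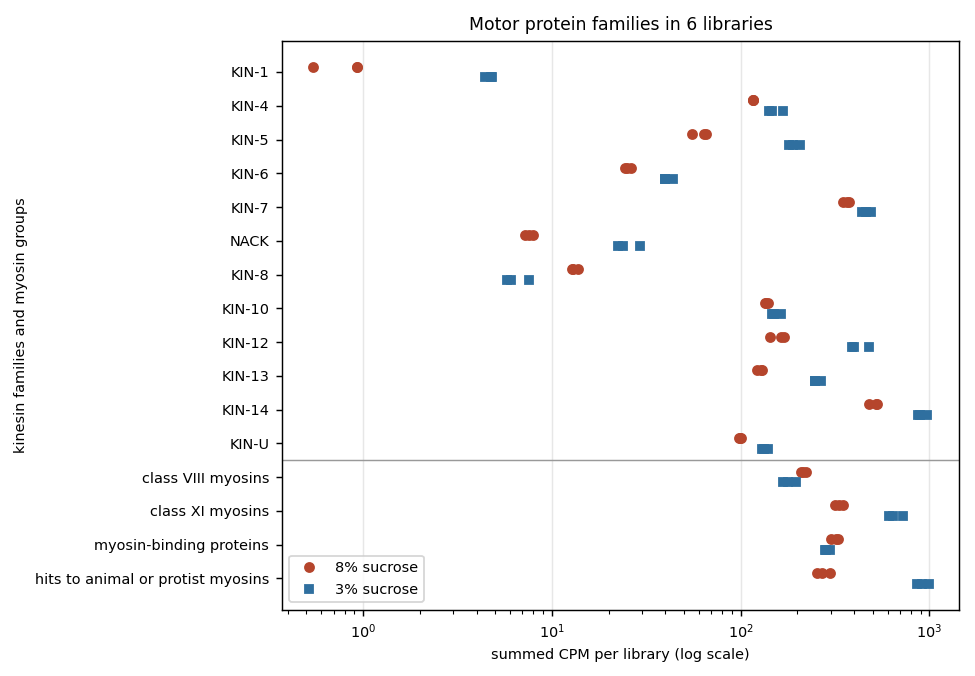
Summed CPM per library (log axis) of kinesin families (above the line) and of myosin groups (below it), with the 8% libraries as circles and the 3% libraries as squares. KIN-8, class VIII myosins and myosin-binding proteins lie higher at 8% sucrose; every other family shown lies lower.

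In the actin system 10 of 12 tested actin hits, 3 of 4 profilin hits and all 3 hits of actin-depolymerizing factors fell. On the factors of the hits 8 actin hits fell and 1 rose, and the other counts were as before. The actin hits that fell differed widely in level. Over the 6 libraries the Arabidopsis Actin-4 and Actin-1 hits averaged 0.351 and 1.15 CPM, against 1398 CPM for Actin-7. Actin clusters summed to 649.5, 723 and 704 CPM at 8% sucrose, against 2411, 2545 and 2391 CPM at 3% sucrose, a log2 ratio of -1.82. Of 23 tested actin clusters 13 fell and 2 rose (56.52% and 8.70%). The Actin-7 hit, the main vegetative actin of Arabidopsis, had 557, 635 and 625 CPM at 8% sucrose, against 2138, 2292 and 2143 CPM at 3% sucrose (log2 fold change -1.86 ± 0.06, adjusted p = 1.08e-08). Its 9 tested clusters were unequal. Cluster-2051.74349 had 208, 245 and 249 CPM at 8% sucrose, against 1304, 1410 and 1318 CPM at 3% sucrose. Cluster-2051.76750 had 188, 212 and 203 CPM at 8% sucrose, against 505, 552 and 507 CPM at 3% sucrose. Per length Cluster-2051.74349 had the highest level of any member at 3% sucrose, 1593 FPKM, where Cluster-2051.76750 had 825; at 8% sucrose the order was turned, with 308 FPKM for Cluster-2051.74349 and 353 FPKM for Cluster-2051.76750. The Actin-7 cluster that rose with the smallest adjusted p, Cluster-2051.40010, had 1.39 CPM or less in every library. Its adjusted p of 0.0369 became 0.0737 to 0.131 when 8% replicate 2 or 3 or any 3% replicate was left out. The carrot Actin-2 hit fell by 1.68 and the Arabidopsis Actin-11 hit fell by 1.51, both without overlap between the media.

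Profilins summed to 248, 267 and 265 CPM at 8% sucrose, against 866, 861 and 826 CPM at 3% sucrose, a log2 ratio of -1.71. The rubber tree profilin-1 hit, a single cluster of 1905 bp, had 208, 226 and 225 CPM at 8% sucrose, against 777, 775 and 742 CPM at 3% sucrose (log2 fold change -1.80 ± 0.05, adjusted p = 5.78e-09). The tomato profilin-1 hit fell by 2.87, with 7.14, 6.15 and 6.34 CPM at 8% sucrose, against 47.0, 49.4 and 46.7 CPM at 3% sucrose. The pineapple profilin hit rose by 0.86, with 24.2, 26.1 and 23.8 CPM at 8% sucrose, against 16.5, 11.7 and 12.6 CPM at 3% sucrose (adjusted p = 0.000173). The ratio of summed actin to profilin FPKM was 8.16, 8.17 and 7.72 at 8% sucrose and 7.62, 7.95 and 7.76 at 3% sucrose, which overlap.

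Actin-depolymerizing factors and actin-interacting protein 1 take filaments apart. The petunia actin-depolymerizing factor 2 hit had 243, 253 and 238 CPM at 8% sucrose, against 626, 614 and 593 CPM at 3% sucrose (log2 fold change -1.32 ± 0.05, adjusted p = 2.03e-08). Factor 5 of Arabidopsis, which bundles filaments there, had 12.4, 10.8 and 11.9 CPM at 8% sucrose, against 60.8, 56.5 and 58.4 CPM at 3% sucrose, and fell by 2.32. The grapevine factor fell by 0.73. Clusters were less uniform than hits: of 13 tested, 5 fell and 4 rose (38.46% and 30.77%), beside 25.6% and 29.1% of all tested clusters. Cluster-2051.88110 rose with 26.8, 28.1 and 27.6 CPM at 8% sucrose, against 11.3, 10.7 and 11.8 CPM at 3% sucrose. Cluster-2051.88111 fell with 58.8, 62.4 and 55.1 CPM at 8% sucrose, against 224, 211 and 208 CPM at 3% sucrose. Actin-interacting protein 1-2 had 41.8, 40.8 and 40.0 CPM at 8% sucrose, against 108, 116 and 114 CPM at 3% sucrose (log2 fold change -1.46 ± 0.05). The protein 1-1 hit rose by 0.90, with 2.36, 2.24 and 2.28 CPM at 8% sucrose, against 1.12, 1.07 and 1.48 CPM at 3% sucrose. A protein 1-2 cluster below 0.55 CPM in every library, Cluster-22388.0, rose with an adjusted p of 0.0274. That call was lost without 8% replicate 1, 2 or 3 or without 3% replicate 2 or 3 (adjusted p 0.0733 to 0.0856).

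**Figure D4:**
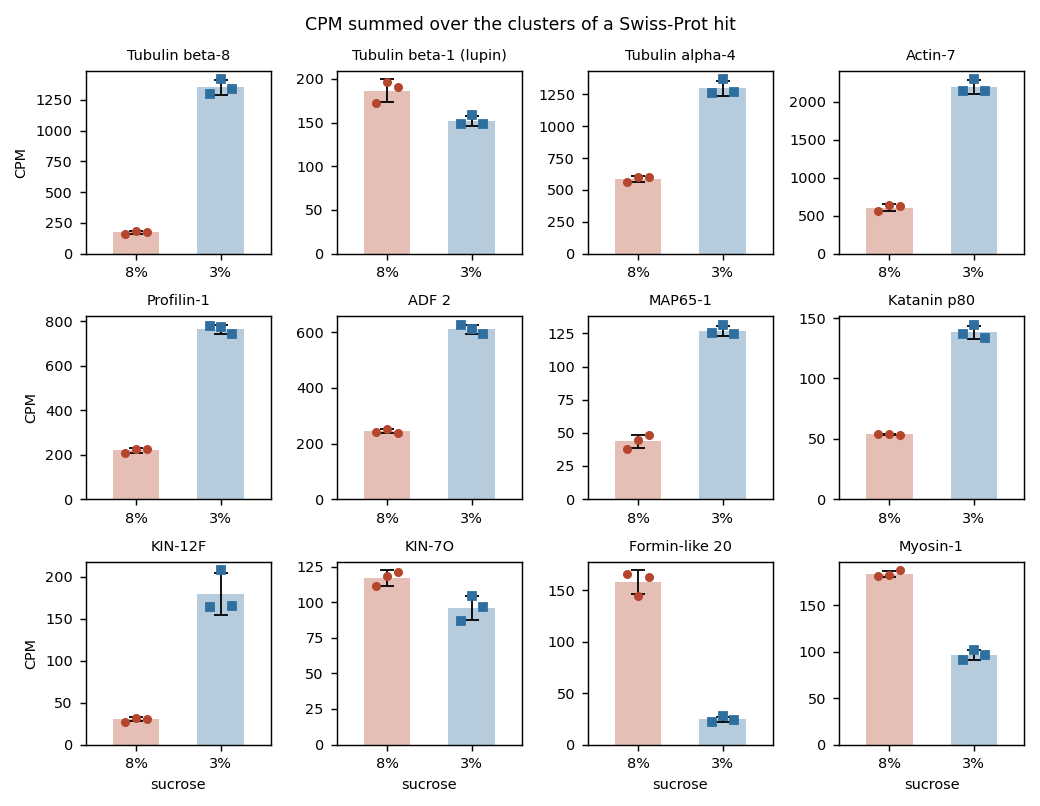
CPM summed over the clusters of 12 Swiss-Prot hits, with 8% sucrose left of 3% sucrose in each panel; points are libraries, bars the mean and error bars the SD of 3 libraries. The lupin tubulin beta-1, KIN-7O, formin-like protein 20 and myosin-1 hits lie higher at 8% sucrose, and the other 8 hits lower.

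Villins, which bundle and sever filaments, summed to 238, 259 and 250.3 CPM at 8% sucrose, against 296, 328 and 308 CPM at 3% sucrose, a log2 ratio of -0.32 that became 0.03 on the factors of the hits. Villin-3, with the most counts, had 182, 204 and 196 CPM at 8% sucrose and 204, 229.7 and 217 CPM at 3% sucrose, which overlap. Its log2 fold change was -0.16 (adjusted p = 0.048). The call was lost without 8% replicate 1 (-0.12) or 3 (-0.17) or 3% replicate 2 (-0.12) or 3 (-0.16). On the factors of the hits Villin-3 passed as higher (0.19, adjusted p = 0.0144). Villin-4 fell by 0.87 and the rice Villin-5 hit fell by 1.05, both without overlap. Among 4 tested villin hits 1 rose and 3 fell, and on the factors of the hits 2 rose and 2 fell. Among 14 tested villin clusters 4 rose and 2 fell, with a median log2 fold change of 0.44. The share that rose, 28.57%, lay near the 29.1% of all tested clusters. The share that fell was 14.29%, beside 25.6%, and rests on 2 clusters. The villin rise with the smallest adjusted p was in a Villin-4 cluster at 0.75 CPM or less in every library, Cluster-5276.1.

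Formin-like proteins were called higher more often than lower. Of 58 tested clusters 29 rose and 11 fell (50.0% and 18.97%), beside 29.1% and 25.6% of all tested clusters. The median log2 fold change was 1.00, and of 13 tested hits 8 rose and 5 fell. Formin-like protein 20 alone gave 14 of the 29 rises, so the 50.0% share of clusters rests in large part on 1 hit. The shares without that hit were not computed. The clearest case was formin-like protein 20, a class II formin of Arabidopsis: its hit had 166, 145 and 163 CPM at 8% sucrose, against 22.0, 27.4 and 24.2 CPM at 3% sucrose (log2 fold change 2.69 ± 0.09, adjusted p = 1.27e-08). All 14 of its tested clusters rose. Cluster-2051.76020, with the smallest adjusted p, had 56.8, 52.9 and 53.3 CPM at 8% sucrose, against 7.59, 8.34 and 6.31 CPM at 3% sucrose, and Cluster-2051.97605 had 4.74, 12.2 and 11.6 CPM at 8% sucrose, against 0 in all 3 libraries at 3% sucrose, at least 114-fold higher than the mean CPM that 3 counts per library give there. Formin-like protein 5, which acts at the cell plate in Arabidopsis, had 187, 185 and 169 CPM at 8% sucrose, against 145, 164 and 151 CPM at 3% sucrose, and rose by 0.23 (adjusted p = 0.00963). Formin-like protein 6 of Arabidopsis went the other way: Cluster-2051.6397 had 2.54, 2.32 and 1.63 CPM at 8% sucrose, against 26.3, 29.1 and 26.5 CPM at 3% sucrose. Formin-like protein 14, singled out after its values were seen, fell by 0.73, with 68.6, 65.6 and 63.6 CPM at 8% sucrose, against 103, 119 and 106 CPM at 3% sucrose.

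The summed formin level rested on 1 hit whose annotation is mixed. The rice formin-like protein 3 hit had 1745, 1715 and 1581 CPM at 8% sucrose, against 1376, 1326 and 1276 CPM at 3% sucrose (log2 fold change 0.34 ± 0.05, adjusted p = 0.000272), of which Cluster-2051.77907, of 6312 bp, carried 1664, 1633 and 1489 CPM at 8% sucrose, against 1345, 1310 and 1256 CPM at 3% sucrose. Without 3% replicate 3 the log2 fold change of this cluster was 0.19 (adjusted p = 0.0507). Both clusters of this hit, and no other of the 77 formin-like members, also carry alternative oxidase, a mitochondrial enzyme, in the Pfam column; whether reads of another gene are counted there was not tested. The class sum was 2315, 2257 and 2123 CPM at 8% sucrose, against 1844, 1870 and 1765 CPM at 3% sucrose, a log2 ratio of 0.29. Without these 2 clusters it was 570.5, 542 and 542 CPM at 8% sucrose, against 468, 543 and 489 CPM at 3% sucrose, which overlap (log2 ratio 0.14), while 27 of 56 tested clusters rose and 11 fell. These 27 rises still include the 14 of formin-like protein 20, whose hit averaged 158 CPM at 8% and 24.5 CPM at 3% sucrose.

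Summed myosin levels differed by class, while the hits within each class moved both ways. The class XI hits, whose plant members move organelles along actin, summed to 317, 332 and 347 CPM at 8% sucrose, against 612, 728 and 642 CPM at 3% sucrose, a log2 ratio of -0.99. Among 92 tested clusters 25 fell and 15 rose (27.17% and 16.3%), beside 25.6% lower and 29.1% higher over all tested clusters. By hit, 3 of 9 rose and 3 fell (4 and 3 on the factors of the hits), with a median log2 fold change of -0.01. Myosin-17 had 99.1, 101 and 106 CPM at 8% sucrose, against 259.7, 333 and 278 CPM at 3% sucrose (log2 fold change -1.51 ± 0.09, adjusted p = 4.39e-07). Myosin-6 had 91.9, 105 and 102 CPM at 8% sucrose, against 209.6, 241 and 220.2 CPM at 3% sucrose (log2 fold change -1.17 ± 0.07). Both are class XI myosins, and neither overlapped between the media. Class VIII hits, found at plasmodesmata and the cell plate in plants, summed to 209, 213 and 221 CPM at 8% sucrose, against 168, 197 and 179 CPM at 3% sucrose, a log2 ratio of 0.24. Among 16 tested clusters 10 rose and 2 fell (62.5% and 12.5%), and 9 of the 10 rises were of Myosin-1. The class VIII hits moved apart: Myosin-1 had 182, 182 and 188 CPM at 8% sucrose, against 91.0, 102 and 96.0 CPM at 3% sucrose, and rose by 0.93 (adjusted p = 4.51e-07), with 9 of 10 tested clusters called higher, while Myosin-2 had 26.5, 30.1 and 33.4 CPM at 8% sucrose, against 76.6, 94.9 and 82.5 CPM at 3% sucrose, and fell (log2 fold change -1.50 ± 0.10). Class VIII members were singled out after their values were seen.

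Myosin-binding proteins, vesicle-bound partners of class XI myosins in plants, summed to 319.7, 328 and 302 CPM at 8% sucrose, against 282, 298 and 284 CPM at 3% sucrose. The cluster of myosin-binding protein 7 with the smallest adjusted p, Cluster-2051.34934, rose with 41.0, 40.0 and 34.8 CPM at 8% sucrose, against 9.38, 8.96 and 9.05 CPM at 3% sucrose. The myosin-named cluster with the most counts, Cluster-2051.105436, hit the myosin-2 heavy chain of the amoeba Dictyostelium discoideum and had 159, 194 and 178 CPM at 8% sucrose, against 624, 713 and 671 CPM at 3% sucrose. It is of uncertain identity: no myosin head is named for it, while its best NR hit is a sugar beet protein predicted as myosin-11. Hits to animal or protist myosins together had a log2 ratio of -1.75, and the actin system without them had -0.65.

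The ARP2/3-type clusters summed to 93.0, 98.0 and 95.3 CPM at 8% sucrose, against 179.7, 188 and 187 CPM at 3% sucrose, a log2 ratio of -0.95. The core subunit ARP2 had 27.9, 31.5 and 30.5 CPM at 8% sucrose, against 51.4, 52.9 and 53.1 CPM at 3% sucrose (log2 fold change -0.81 ± 0.06), ARP3 fell by 1.44 and subunit 2A fell by 1.31. Cluster-2051.17591, of subunit 2A, had 9.65, 9.76 and 9.05 CPM at 8% sucrose, against 27.7, 25.6 and 25.0 CPM at 3% sucrose. The rise with the smallest adjusted p, in a subunit 2B cluster, Cluster-2051.133061, was of 0.362, 0.984 and 0.362 CPM at 8% sucrose, against 0 in all 3 libraries at 3% sucrose, at least 6.87-fold higher. Of 11 tested ARP2/3 hits 6 fell and 5 did not pass; on the factors of the hits 6 fell and 2 rose. The other actin-related proteins, several of which belong to chromatin remodelling complexes in the nucleus, summed to 288, 299 and 318 CPM at 8% sucrose and 310.2, 316 and 309.9 CPM at 3% sucrose, with overlap. Of their 9 tested hits 8 fell and 1 rose, and on the factors of the hits 4 fell and 1 rose. Cluster-2051.64940, with an ARP7 hit, held 41.01% of the summed CPM of these proteins at 8% sucrose and 15.29% at 3% sucrose (log2 ratio of the sums -0.05, or 0.30 on the factors of the hits). ARP7 rose, with 139, 144 and 155 CPM at 8% sucrose, against 67.4, 68.0 and 65.5 CPM at 3% sucrose (log2 fold change 1.12 ± 0.06, adjusted p = 1.48e-07). ARP4 had 55.6, 57.1 and 60.7 CPM at 8% sucrose, against 74.1, 74.2 and 76.7 CPM at 3% sucrose, and ARP9 29.1, 27.4 and 29.1 CPM at 8% sucrose, against 35.5, 41.6 and 34.1 CPM at 3% sucrose. Both fell (-0.37 and -0.38), and both calls were lost on the factors of the hits, where each had -0.02. The ARP8 cluster with the smallest adjusted p, Cluster-2051.101194, fell, averaging 5.53 ± 0.471 CPM at 8% sucrose, against 23.4 ± 0.152 CPM at 3% sucrose (SD, n = 3).

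Set side by side, the summed level of both systems was lower at 8% sucrose. The microtubule system summed to 3960, 4261 and 4245 CPM at 8% sucrose, against 9287, 10160 and 9407 CPM at 3% sucrose, a log2 ratio of -1.21. The actin system summed to 5262, 5415 and 5220 CPM at 8% sucrose, against 8673, 9162 and 8623 CPM at 3% sucrose, a log2 ratio of -0.73. Of 463 tested microtubule-system clusters 63 rose and 172 fell (median log2 fold change -0.39), and of 351 tested actin-system clusters 92 rose and 103 fell (median -0.02). Over all tested clusters 29.1% rose and 25.6% fell, so the actin-system shares of 26.21% and 29.34% lay near the background, and the microtubule-system shares were 13.61% and 37.15%. By hit, 18 of 125 rose and 81 fell in the microtubule system, and 21 of 88 rose and 51 fell in the actin system, beside 29.9% and 50.1% of all tested hits. On the factors of the hits 30 rose and 61 fell in the microtubule system, and 29 rose and 44 fell in the actin system, beside 39.9% and 39.7%. The ratio of microtubule to actin CPM was 0.753, 0.787 and 0.813 at 8% sucrose and 1.07, 1.11 and 1.09 at 3% sucrose, with every 8% library below every 3% library.

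That contrast depended on the formin-like clusters described above. Cluster-2051.77907 alone held 30.1% of the actin-system CPM at 8% sucrose and 14.8% at 3% sucrose. Without the 2 clusters that carry alternative oxidase the actin system had a log2 ratio of -1.05, close to that of the microtubule system. The ratio was then 1.13, 1.15 and 1.17 at 8% sucrose and 1.27, 1.30 and 1.28 at 3% sucrose, still without overlap. The log2 ratio of the microtubule system minus that of the actin system was -0.48 with all members, -0.19 without Cluster-2051.77907 and -0.16 without both clusters. Per length, where long clusters weigh less, the summed FPKM at 8% over 3% sucrose was 0.479 for the microtubule and 0.471 for the actin system.

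**Figure D5:**
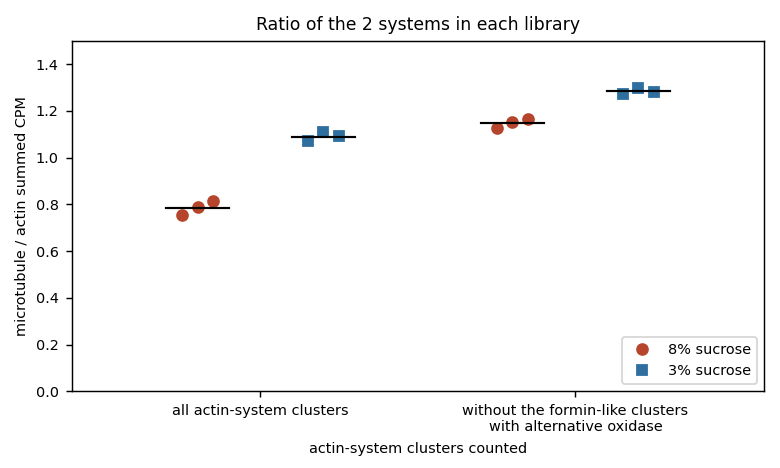
Ratio of summed microtubule-system to actin-system CPM in each library, with all actin-system clusters (left pair) and without the 2 formin-like clusters that carry alternative oxidase in the Pfam column (right pair). The 8% libraries (circles) lie below the 3% libraries (squares) in both pairs, by less in the second; lines are means.

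Per length actins had the highest summed FPKM in both media, 1403 ± 41.3 at 8% sucrose and 4203 ± 100.3 at 3% sucrose (SD, n = 3). Beta-tubulins followed, with 896 ± 69.0 FPKM at 8% sucrose and 2504 ± 147 FPKM at 3% sucrose. At 8% sucrose kinesin motors (754 ± 33.3 FPKM) came next, above alpha-tubulins (691 ± 29.4 FPKM); at 3% sucrose alpha-tubulins, with 1732 ± 66.5 FPKM, lay above kinesin motors, with 1096 ± 63.1 FPKM. Formin-like proteins had 551 ± 8.30 FPKM at 8% sucrose and 379 ± 10.8 FPKM at 3% sucrose. The ratio of actin to alpha- plus beta-tubulin FPKM was 0.907, 0.862 and 0.886 at 8% sucrose and 0.970, 0.982 and 1.03 at 3% sucrose, without overlap. Some hits had a high FPKM for their counts. At 8% sucrose the rice tubulin beta-6 hit averaged 176 FPKM from 21.1 CPM, and the carrot Actin-2 hit 401 FPKM from 57.7 CPM. How far the order of classes and the FPKM ratios rest on such clusters was not tested.

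The largest changes were sought among called clusters without overlap that averaged 100 or more counts. The 5 largest rises were clusters of formin-like protein 20 (Cluster-2051.97605 and Cluster-2051.92954), KIN-14C, myosin-1 (Cluster-2051.74440) and KIN-14P. Cluster-2051.92954 had 7.46, 4.92 and 5.35 CPM at 8% sucrose, against 0.206, 0 and 0.302 CPM at 3% sucrose, and Cluster-2051.74440 averaged 5.41 ± 0.989 CPM at 8% sucrose, against 0.335 ± 0.374 CPM at 3% sucrose. The KIN-14C cluster, Cluster-2051.104522, averaged 12.8 ± 0.308 CPM at 8% sucrose, against 0.653 ± 0.536 CPM at 3% sucrose, and the KIN-14P cluster, Cluster-2051.104533, had 22.1, 14.7 and 17.1 CPM at 8% sucrose, against 1.62, 1.62 and 1.23 CPM at 3% sucrose. The 5 largest falls were clusters of myosin-binding protein 1, KIN-UA, KIN-13B, KIN-4C and KIN-12F. The myosin-binding protein 1 cluster, Cluster-2051.131874, was at 0 in all 3 libraries at 8% sucrose, against 10.8 ± 0.532 CPM at 3% sucrose, at least 137-fold lower; its hit averaged 15.7 ± 1.98 CPM at 8% sucrose, against 36.2 ± 1.63 CPM at 3% sucrose. The KIN-UA cluster, Cluster-2051.89641, was at 0 at 8% sucrose, against 5.59, 11.7 and 10.5 CPM at 3% sucrose, at least 117-fold lower; its hit as a whole had 35.5, 35.1 and 35.1 CPM at 8% sucrose, against 38.5, 49.9 and 46.3 CPM at 3% sucrose (log2 fold change -0.35, adjusted p = 0.00574), a call that was lost on the factors of the hits (0.00, adjusted p = 0.987). The KIN-13B cluster, Cluster-2051.37853, was also at 0 at 8% sucrose, at least 75.4-fold lower; its hit averaged 58.8 ± 5.41 CPM at 8% sucrose, against 102 ± 6.14 CPM at 3% sucrose. The KIN-4C cluster, Cluster-2051.22002, had 0, 0 and 0.181 CPM at 8% sucrose, against 6.68, 6.98 and 6.25 CPM at 3% sucrose. Its hit had 87.3, 86.2 and 83.6 CPM at 8% sucrose and 76.8, 93.1 and 77.2 CPM at 3% sucrose, which did not pass (log2 fold change 0.06, adjusted p = 0.515) and passed as higher on the factors of the hits (0.41, adjusted p = 0.000646). The KIN-12F cluster, Cluster-2051.90762, had 1.09, 0 and 0.284 CPM at 8% sucrose, against 14.6, 10.8 and 3.73 CPM at 3% sucrose. Of tested members 17 were at 0 in every 3% library and 13 at 0 in every 8% library.

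Cytoskeletal proteins outside the naming rule, such as fimbrins, WLIM and NETWORKED proteins, augmin, TPX2, MOR1, CLASP and dynamin-related proteins, formed a list of 482 clusters, of which 355 were tested. Of these 63 rose and 138 fell (17.75% and 38.87%), beside 29.1% and 25.6% of all tested clusters, with a median log2 fold change of -0.34. The sum of the list was 3300, 3431 and 3407 CPM at 8% sucrose, against 6317, 6801 and 6350 CPM at 3% sucrose. The list was built from words in descriptions and also took an mRNA-decapping protein by spelling. Its cluster that fell with the most counts was of NETWORKED 1A, an actin-binding membrane protein (Cluster-2051.105024), with 53.8, 60.7 and 56.6 CPM at 8% sucrose, against 366, 352 and 354 CPM at 3% sucrose (log2 fold change -2.65 ± 0.06, adjusted p = 7.29e-07). Its cluster that rose with the most counts was of WLIM2b, which bundles actin (Cluster-2051.69923), with 132, 132 and 123 CPM at 8% sucrose, against 95.6, 99.8 and 91.0 CPM at 3% sucrose (log2 fold change 0.44 ± 0.06, adjusted p = 0.000971). The authors' deposited table calls 143 members higher and 291 lower at 8% sucrose; of the 430 members called here, 367 carry the same call there, 63 carry none and 0 the opposite one.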

How the data were processed

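Poly(A) RNA of suspension cells was sequenced as read pairs from NEBNext Ultra libraries, which do not mark strand, so antisense reads cannot be told apart (per the labels' protocols). Tools named in the submitters' processing notes are RSEM, Bowtie2, Trimmomatic 0.36 and FastQC; which assembler, search tools and test were applied is not given in the sources used. The authors deposited, per the file headers, an expected count and an FPKM value per cluster and library, a log2 ratio with its q-value, and as other values the cluster length and the E-values of database hits. The authors' log2 ratio and q-value enter only through their calls.

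Expected counts were rounded, filtered with filterByExpr, scaled with TMM factors (0.935 to 1.074) and tested with the quasi-likelihood functions of edgeR 4.0.16, run in R 4.3.3, 8% against 3% sucrose with no covariate, on 85038 clusters, calling adjusted p below 0.05 by Benjamini-Hochberg. Each SE was taken as the absolute log2 fold change over the square root of F. Counts summed by Swiss-Prot hit were tested likewise on 13187 hits, on the library sizes of the cluster fit. CPM are on TMM-scaled library totals, where the zero limit of 3 counts is 0.0776 to 0.0882 CPM and covers counting error only. Class and system sums have no p. The fit was tested on simulated data with 200 changed clusters among 78467, where it called few unchanged clusters and a minority of the changed ones at either fold. That share of changed clusters is far below the 54.6% called in these data. The error and recovery rates of the simulation therefore do not carry over, and changes that did not pass may be real. Replicates differed by more than sampling noise (chi-square per cluster 8.57 to 15.5), so none was merged. Alternatives were DESeq2 1.42.0, upper-quartile factors, no filter, land plant hits only, each library left out, a replicate block, and, chosen after seeing the data, TMM factors of the hits and sums without certain clusters. The members and lists were chosen with earlier results of these data known. Named are, per class, the 3 most abundant hits, the most abundant cluster and the rise and the fall with the smallest adjusted p, plus the 5 largest rises and falls over all members and the most abundant rise and fall of the outside list; others were singled out after their values were seen, and a most abundant cluster is given where it adds to its hit. Sequences were not used here.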

Additional observations from a re-analysis of the deposited data

How the results depend on the processing

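The counts of calls depend on what is counted. Summing by hit gave 39 rises and 132 falls in place of 155 and 275 clusters, 18 and 81 in place of 63 and 172 for the microtubule system, and 21 and 51 in place of 92 and 103 for the actin system. TMM factors of the hits gave 59 hits that rose over both systems and 30 in the microtubule system, log2 ratios of -0.86 for the microtubule and -0.38 for the actin system, and positive values for KINESIN LIGHT CHAIN-RELATED 1 (0.24), Villin-3 (0.19), tubulin tyrosine ligase-like protein 12 (0.30), MAP70-2 (0.14) and gamma-tubulin complex component 2 (0.11). The actin ratio was -0.79 on DESeq2 size factors, -0.65 with land plant hits only or without hits to animal or protist myosins, -1.02 without the most abundant formin-like cluster and -1.05 without both clusters that carry alternative oxidase. The difference of the microtubule and the actin ratio was -0.57 with land plant hits only, -0.56 without animal or protist myosins, -0.19 without the most abundant formin-like cluster and -0.16 without both.

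Leaving out each library in turn gave 37 to 55 microtubule clusters that rose, with 37 without 8% replicate 3 and 39 without 8% replicate 2. It gave actin log2 ratios of -0.82 to -0.72 and microtubule ratios of -1.30 to -1.17; all other system counts stayed within 1.5 times. Same-numbered libraries did not deviate together (correlations 0.03, 0.00 and 0.01), so the numbers do not pair them; with the replicate block 41 microtubule clusters rose and 146 fell. The cause of these shifts was not tested. The median level was 1.74 CPM for members that rose, 9.29 CPM for those that fell and 0.962 CPM for those that did not pass, against 1.69, 5.01 and 0.841 CPM over all tested clusters; no alternative varied the depth. Clusters that share a hit cannot be told apart as genes or alleles.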

Other observations

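Clusters that share a protein hit moved in opposite directions in part of the member hits, no more often than over all hits. Of 147 member hits with at least 2 tested clusters, 45 (30.6%) had 1 or more clusters that rose and 1 or more that fell; over all hits of the table this held for 3110 of 9283 (33.5%). In 28 of the 45 member hits the most abundant cluster fell, in 9 it rose and in 8 it did not pass. Whether such clusters are alleles, gene copies or splice forms was not tested.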
